A study of Mus musculus with 8 samples.

Results

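Metrn and Metrnl are the members of the meteorin family, a pair of genes that encode small secreted proteins. Both were taken by symbol, whatever their values, from the deposited table of AML12 cells, as 2 of 34945 named genes. AML12 is an established mouse hepatocyte line, derived from an animal transgenic for human TGF-alpha. Poly-A RNA was measured in 4 cultures given Casp8 siRNAs (siCasp8, labelled Casp8 knockdown) and 4 cultures given a scrambled siRNA (Scr, labelled WT). All 8 cultures were the same line, transfected with 40 nM siRNA by the same lipid reagent and collected after 48 hours, and the series asked which secreted gene changes when Casp8 is silenced. The siRNAs knock down Casp8, which encodes the protease that starts the death receptor cascade, in a line of 1 origin, and the sources used here do not give their sequences.

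Meteorin, the protein of Metrn, was found as a factor of neural progenitors and astrocytes that promotes glial differentiation and the growth of nerve processes. Meteorin-like, the protein of Metrnl, is released by muscle, fat and macrophages, is raised by exercise and cold, and binds the receptor tyrosine kinase KIT. Signalling through JAK kinases and STAT3, through AMP-activated kinase and through PPAR nuclear receptors has been described for one or the other protein.

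The promoters of the pair are shown because both genes had their highest values in the same libraries, as described below. Each stretch is from RefSeq (GRCm38.p6), runs from 250 bases before the annotated start to 50 bases after it, and is written 5′ to 3′ on the strand of the gene. Capitals mark the words CCAAT and GGGCGG on either strand, which do not overlap one another here.
Metrn promoter, chr17:25796996-25797295, minus strand: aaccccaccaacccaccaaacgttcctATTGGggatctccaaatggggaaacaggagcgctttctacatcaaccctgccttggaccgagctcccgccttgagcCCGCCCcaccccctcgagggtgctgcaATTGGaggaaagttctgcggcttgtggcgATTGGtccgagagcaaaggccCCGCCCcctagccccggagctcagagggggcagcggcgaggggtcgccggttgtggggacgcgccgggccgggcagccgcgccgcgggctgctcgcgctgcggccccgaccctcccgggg
Metrnl promoter, chr11:121702177-121702476, plus strand: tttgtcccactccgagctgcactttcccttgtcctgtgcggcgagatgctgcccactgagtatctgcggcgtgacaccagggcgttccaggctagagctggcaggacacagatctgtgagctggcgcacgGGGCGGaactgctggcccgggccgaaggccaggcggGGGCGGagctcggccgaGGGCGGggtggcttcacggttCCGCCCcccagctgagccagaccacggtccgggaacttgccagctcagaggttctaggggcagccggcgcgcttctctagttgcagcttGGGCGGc

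The Metrn stretch held CCAAT 3 times and GGGCGG 2 times, and the Metrnl stretch held GGGCGG 5 times and CCAAT not at all. Of 32851 RefSeq promoters of the same length, 37.4% held CCAAT at least once and 3.37% held it at least 3 times. GGGCGG occurred in 35.7% of them, 19.5% held it at least 2 times and 2.71% held it at least 5 times. Neither stretch held TATAAA, which 13.6% of promoters did. The share of G and C was 69.3% for Metrn and 68.0% for Metrnl, against a median of 52.7% over all promoters. The shares of promoters with each word were not matched for G and C. Both promoters were thus rich in G and C and held GGGCGG, while only that of Metrn held CCAAT. Such matches are a description of letters only.

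Metrn spans chr17:25793221-25797136, minus strand, and Metrnl spans chr11:121701544-121716306, plus strand (GENCODE annotation of GRCm38). The coding sequence has 876 bases in transcript Metrn-201 and 936 bases in transcript Metrnl-201. In a global alignment of both, 518 of 840 aligned bases, or 61.7%, were identical. The annotated transcripts of the pair shared 0 words of 31 bases, so a read of that length or longer without errors could be assigned to one gene or the other. Metrn shared 259 of its 3831 words, or 6.76%, with 1 other gene, the read-through gene AC134908.4 on the same strand, which was not analysed here. Metrnl shared 5 of its 1583 words, or 0.316%, with 1 other gene, the annotated pseudogene Gm19056. The exons of the long noncoding gene Gm26694, on the opposite strand, covered 48.4% of the exon bases of Metrn. The sources used here do not say whether counting used strand. Without it, reads of Metrn and of Gm26694 cannot be told apart over the shared bases.

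Casp8 was checked first. Its normalized value was 1480 ± 108 in siCasp8 and 3972 ± 129 in Scr (SD, n = 4 each), with no overlap, so 37.3% of the Scr level was left. Estimated depth was 50.5 to 57.1 M reads in siCasp8 and 30.7 to 51.8 M reads in Scr, and all but Scr replicate 4 of the Scr libraries were shallower than any siCasp8 library. Of the hepatocyte markers 7 were tested, and 4 were called higher and 1 lower by limma, or 71.4%. Among all genes tested 40.2% were called, 19.4% as higher and 20.8% as lower. Alb, the serum albumin gene, rose to 3626 in siCasp8, against 86.4 in Scr (log2 fold change 5.38), Ttr and Fgb rose by 1.46 and 2.59, and Apob fell to 21951 in siCasp8, against 26046 in Scr (-0.25). Hnf4a averaged 6944 in siCasp8 and 6535 in Scr, and Apoa1 averaged 18.9 in siCasp8 and 14.6 in Scr, and neither was called. Apoc3, Cps1 and Asgr1 had means under 10, and Ahsg was listed at 0 in all 8 libraries. The 7 cholangiocyte markers summed to between 129228 and 136582 in siCasp8 and between 114618 and 123301 in Scr, most of it Spp1. The 7 macrophage markers summed to 579 to 654 in siCasp8 and 781 to 849 in Scr, with Adgre1, Clec4f and C1qa at 0 throughout. The 6 endothelial markers summed to 178 to 301 in siCasp8 and 186 to 536 in Scr, with Cdh5 and Lyve1 at 0. The 8 stellate cell markers summed to 100.5 to 178 in siCasp8 and 121 to 182 in Scr. Their part in the results below was not tested.

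Metrn was detected in every library and was not called as changed by Casp8 silencing. Its normalized values were 255, 222, 226 and 259 in siCasp8 replicates 1 to 4, and 324, 309, 254 and 263 in Scr replicates 1 to 4. Scr replicates 1 and 2 were above all other libraries, whereas Scr replicates 3 and 4 lay beside siCasp8 replicates 1 and 4, so the groups overlapped. The mean was 240 ± 19.2 in siCasp8 and 288 ± 34.1 in Scr (SD, n = 4 each), or 83.6% of the Scr level. The log2 fold change was -0.25 (SE 0.103, 95% interval -0.48 to -0.03), with a limma p of 0.0291 and an adjusted p of 0.0676 over all 14154 genes tested. Among the 70 ways to split the 8 libraries, the exact permutation test (two-sided) gave p = 0.0857, where 0.0286 is the smallest it can give. On a linear scale the interval runs from 71.8% to 97.9% of the Scr level. The log2 fold change was -0.15 after upper quartile rescaling (limma adjusted p = 0.237) and -0.07 with estimated depth as a covariate (limma adjusted p = 0.83), and the unadjusted limma p was over 0.05 in both. Without Scr replicate 3 it was -0.31 and was called (limma adjusted p = 0.0345).

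Metrnl was also detected in every library and was not called either. It had normalized values of 99.2, 91.5, 86.4 and 92.5 in siCasp8 replicates 1 to 4, and 117, 109, 91.0 and 95.8 in Scr replicates 1 to 4. The same 2 libraries, Scr replicates 1 and 2, were again the highest, and the other Scr libraries lay within the range of the siCasp8 libraries. The mean was 92.4 ± 5.24 in siCasp8 and 103 ± 12.0 in Scr (SD, n = 4 each), or 89.5% of the Scr level. The log2 fold change was -0.15 (SE 0.128, 95% interval -0.43 to 0.13, limma adjusted p = 0.374), and the exact two-sided permutation test gave p = 0.20. The interval allows from 74.2% to 109% of the Scr level. With estimated depth as a covariate the estimate changed sign, to 0.02 (limma adjusted p = 0.961). Over all genes tested, 40.2% were called by limma, 20.8% as lower and 19.4% as higher, so an uncalled gene was the more usual outcome.

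**Figure D1:**
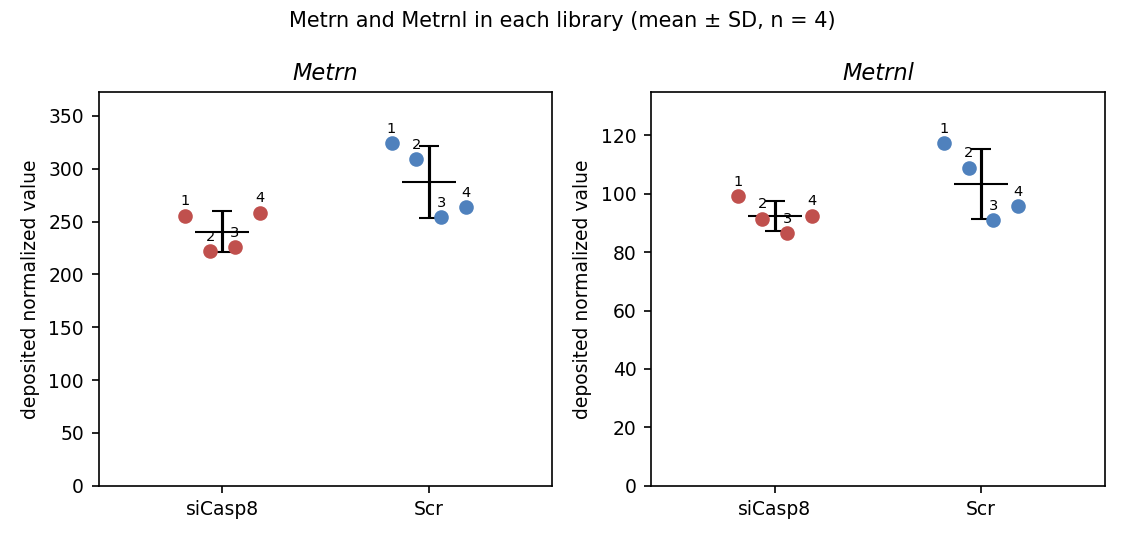
Deposited normalized values of Metrn (left) and Metrnl (right) in each library, with siCasp8 left of Scr in each panel; points are libraries numbered by replicate, and bars give mean ± SD (n = 4). Scr replicates 1 and 2 are the highest libraries for both genes, at 324 and 309 for Metrn and 117 and 109 for Metrnl, and the groups overlap.

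In Scr the ratio of the pair was steadier than either gene. Metrn was 2.58, 2.43, 2.61 and 2.79 times Metrnl in siCasp8 replicates 1 to 4, and 2.76, 2.84, 2.79 and 2.75 times Metrnl in Scr replicates 1 to 4, by deposited value. The 4 Scr ratios had a mean of 2.79 and an SD of 0.0390. Either gene alone varied by 11.8% (Metrn) and 11.7% (Metrnl) among the same libraries. Of the siCasp8 ratios, 3 were below every Scr ratio and that of replicate 4 lay among them. On the log2 scale Metrn minus Metrnl was 1.37 ± 0.0828 in siCasp8 and 1.47 ± 0.0202 in Scr (SD, n = 4 each). The difference between the groups was -0.10, with an interval from inverting the exact permutation test of -0.23 to 0.02 and an exact two-sided permutation p of 0.0857. A different response of the pair was therefore not shown, and after quantile normalization the difference was -0.03 (exact permutation p = 0.571), while without siCasp8 replicate 4 it was -0.14 (exact permutation p = 0.0286, the smallest that 3 against 4 libraries allow).

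Levels of the pair can be compared only per length. Per kilobase of transcript Metrn-201 or Metrnl-201, Metrn was at 225 to 262 and Metrnl at 61.7 to 70.8 normalized units in siCasp8, and Metrn was at 258 to 328 and Metrnl at 64.9 to 83.7 in Scr. By these lengths, of 987 and 1401 bases, Metrn was 3.45 to 3.97 times Metrnl in siCasp8 and 3.90 to 4.03 times in Scr. The size of this gap depends on which transcript the reads came from, since the longest Metrn transcript, Metrn-202, has 2751 bases. With that length for Metrn and the shortest complete Metrnl transcript, of 1101 bases, Metrn was 0.972 to 1.12 times Metrnl in siCasp8 and 1.10 to 1.14 times in Scr. Only siCasp8 replicate 2 was below 1. With the shortest complete Metrn transcript, of 698 bases, and Metrnl-201, it was 4.87 to 5.61 times in siCasp8 and 5.52 to 5.70 times in Scr. Transcript-level values were not analysed here.

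The spread of each gene can be set against its read number, estimated from the value of 1 read in each library. About 263 to 334 reads of Metrn stood behind the siCasp8 values and 210 to 303 behind the Scr values, which gives a counting error of 5.47% to 6.16% in siCasp8 and 5.75% to 6.90% in Scr. The observed spread of Metrn was 8.0% in siCasp8 and 11.8% in Scr (SD over mean, n = 4 each). For Metrnl about 101 to 120 reads in siCasp8 and 73.9 to 110 reads in Scr gave counting errors of 9.14% to 9.96% and 9.53% to 11.6%, against an observed spread of 5.67% in siCasp8 and 11.7% in Scr. The spread of Metrnl was thus below its counting error in siCasp8 and near the upper end of it in Scr. The Scr ratio of the pair, with an SD of 0.0390 on a mean of 2.79, varied less than the counting error of either gene. A ratio carries the counting error of both genes, so so small a spread over 4 libraries says little about the pair, and it was not tested. Scr replicates 1 and 2, which were highest for both genes, were also the shallowest libraries, at 31.5 and 30.7 M reads. Scr replicate 3, at 38.3 M reads, was also shallower than every siCasp8 library. It had 254 for Metrn and 91.0 for Metrnl, both within the siCasp8 range. Scr replicate 4, whose depth of 51.8 M reads lay within the siCasp8 range, had 263 for Metrn and 95.8 for Metrnl, against siCasp8 ranges of 222 to 259 and 86.4 to 99.2. Depth and group went together in the other libraries, and their parts cannot be told apart there.

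**Figure D2:**
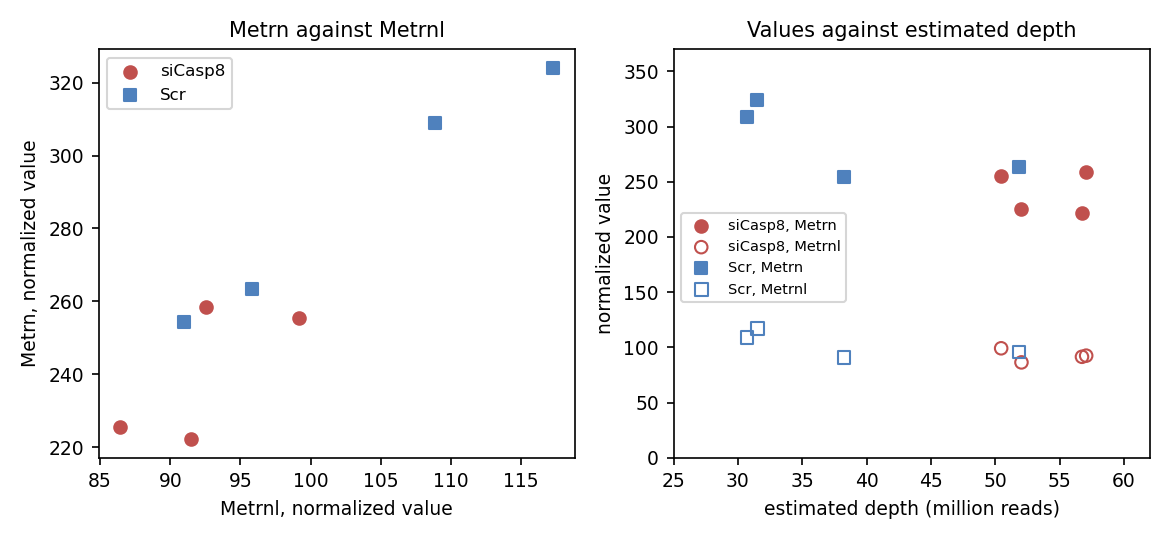
Left, the normalized value of Metrn against that of Metrnl in each library; right, both values against estimated depth (M reads). Red circles are siCasp8 and blue squares Scr libraries, and at right filled points are Metrn and open points Metrnl. The highest values of both genes are those of the Scr libraries at 30.7 and 31.5 M reads.

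Among 17 signalling genes that have been linked to meteorin proteins, 12 had a mean of at least 10, and 5 of these were called, 3 higher and 2 lower, or 41.7%, close to the 40.2% of all genes. Kit, the gene of the receptor of meteorin-like, was listed at 0 in all 8 libraries, while Kitl, the gene of the other ligand of KIT, averaged 8073 ± 388 in siCasp8 and 8480 ± 507 in Scr (log2 fold change -0.07, limma adjusted p = 0.273). Gfap, the astrocyte filament gene that meteorin induces in glial progenitors, was under 10 in every library. The brown fat genes Ucp1, Dio2 and Cidea also had means under 10. The line thus carried transcripts of both family members and of Kitl, with the KIT receptor gene at 0.

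Of the Janus kinase and STAT genes of the list that were tested, Stat3 and Tyk2 rose and the others were not called. Stat3, the gene of the transcription factor through which meteorin signals in glial progenitors, had 9816, 9444, 9296 and 9050 in siCasp8 and 7890, 8378, 7930 and 8002 in Scr. All 4 siCasp8 libraries were above all Scr libraries (log2 fold change 0.22, SE 0.0357, limma adjusted p = 0.000323). Tyk2, a Janus kinase gene, rose to 3179 ± 91.3 in siCasp8, against 2464 ± 66.9 in Scr (0.37, limma adjusted p = 1.15e-05). Jak1, Jak2, the cytokine receptor gene Il6st and the feedback inhibitor gene Socs3 had log2 fold changes of -0.05, 0.09, -0.03 and -0.15 and were not called. Jak2 was called higher without Scr replicate 3 (limma adjusted p = 0.0340), with the replicate block (0.0358), after quantile normalization (0.0109) and after upper quartile rescaling (0.0035), and Socs3 was called lower without Scr replicate 1 (0.0304) or siCasp8 replicate 4 (0.0442). Stat3 and Tyk2 were thus among the 37.5% of genes whose groups did not overlap, made up of 18% with siCasp8 higher and 19.5% with siCasp8 lower.

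The metabolic genes of the list moved in both directions. Pparg, the gene of the nuclear receptor that guides fat cell formation, had 300, 285, 362 and 333 in siCasp8 and 187, 184, 189 and 184 in Scr, with every siCasp8 library above every Scr library (log2 fold change 0.77, SE 0.0931, limma adjusted p = 3.60e-05). Ppargc1a, the gene of a coactivator whose muscle isoform raises Metrnl, fell to 884 ± 69.7 in siCasp8, against 1067 ± 57.4 in Scr (-0.27, limma adjusted p = 0.00539, and -0.23 with an adjusted p of 0.184 with the depth covariate). Prkaa1, the gene of a catalytic subunit of AMP-activated kinase, fell to 5204 ± 51.5 in siCasp8, against 6027 ± 277 in Scr (-0.21, limma adjusted p = 0.000729). Prkaa2, the gene of the other catalytic subunit, and Ppard were not called (-0.12 and 0.07). After upper quartile rescaling, a scaling that shifted the all-gene median by 0.10, 5 genes of the list were called higher and 0 lower. The calls of Ppargc1a and Prkaa1 thus depend on the scaling. Their estimates were smaller there but still below 0, at -0.17 (limma adjusted p = 0.0608) and -0.11 (0.0537).

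Other neurotrophic factor genes were called in both directions. Of 18 genes 13 were tested, and 7 were called, 3 higher and 4 lower, or 53.8%, against 40.2% of all genes, with a median log2 fold change of -0.10 against 0.00 over all genes. The balance depended on the scaling, with 5 higher and 3 lower after upper quartile rescaling and 2 higher and 5 lower after quantile normalization. Ntf3, the gene of neurotrophin-3, had 37.8, 33.6, 30.9 and 38.8 in siCasp8 and 7.86, 13.0, 11.5 and 14.7 in Scr, with no overlap (1.53, SE 0.257, limma adjusted p = 0.000468). The neurotrophic factor genes Cdnf and Nenf rose by 0.74 and 0.23. Clcf1, the gene of a cytokine of the CNTF family, fell to 8871 ± 240 in siCasp8, against 11436 ± 359 in Scr (-0.37, limma adjusted p = 4.88e-06). Cntf, the gene of the family's namesake ciliary neurotrophic factor, fell by 0.44. With estimated depth as a covariate, only Clcf1 of the 7 was called, although the estimates of Ntf3, Nenf and Cntf were still 1.19, 0.25 and -0.50. The Cdnf call was also lost in 7 other alternatives, among them the replicate block (limma adjusted p = 0.0629) and the fits without Scr replicate 2 (0.0942), siCasp8 replicate 1 (0.104) or siCasp8 replicate 2 (0.121), and the Cntf call was lost after upper quartile rescaling (0.0501).

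Hepatokine genes, which encode proteins that liver cells release to act on other tissues, were called in equal numbers in either direction. Of 26 genes 16 were tested, and 10 were called, 5 higher and 5 lower, or 62.5%, against 40.2% of all genes, with a median log2 fold change of 0.17. Rbp4, the gene of the retinol carrier of plasma, rose to 11977 ± 516 in siCasp8, against 6002 ± 208 in Scr (1.00). The genes Igf1, Smoc1 and Selenop rose by 0.91, 0.68 and 0.47. Gdf15, a stress cytokine gene, fell to 370 ± 28.3 in siCasp8, against 663 ± 94.5 in Scr (-0.83). The activin subunit genes Inhbb and Inhba fell by 0.62 and 0.58, Fst, the gene of their inhibitor follistatin, by 0.54, and Tsku by 0.44. The Fst call was lost with the depth covariate, where the estimate was about as large (-0.52, limma adjusted p = 0.235), and without Scr replicate 1 (0.0586), siCasp8 replicate 2 (0.0524) or siCasp8 replicate 3 (0.0590).

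**Figure D3:**
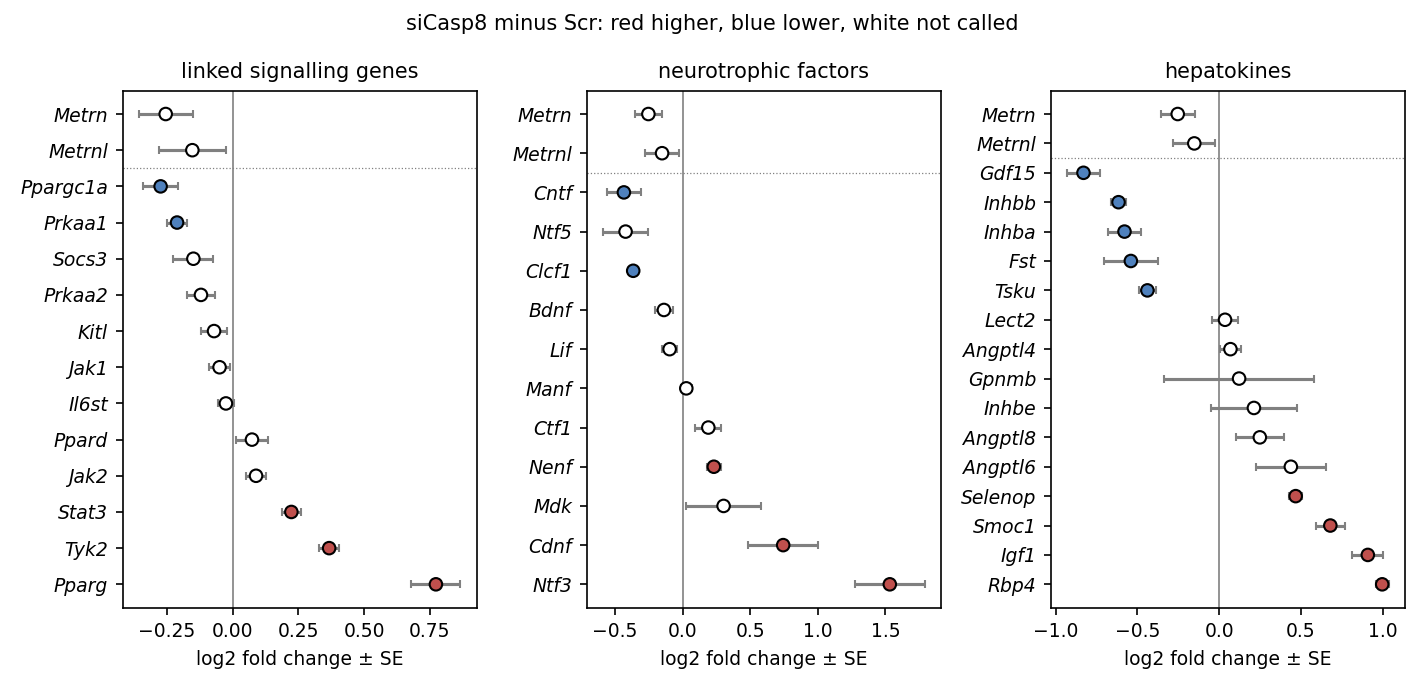
Log2 fold changes of siCasp8 minus Scr (± SE) for Metrn and Metrnl, above the dotted line, and for tested genes of each list below it; red points were called higher, blue points lower and white points were not called at a limma adjusted p of 0.05. Metrn at -0.25 and Metrnl at -0.15 are white, beside the plotted called genes, which are 5 signalling genes, 5 neurotrophic factors and 9 hepatokines.

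On the chromosome around Metrn, 0 of 8 tested neighbours were called by limma: Ciao3, Haghl, Ccdc78 and Antkmt at lower coordinates and Fbxl16, Wdr24, Jmjd8 and Stub1 at higher ones. Of these 8, 0 had an unadjusted limma p under 0.05. Over all genes tested 40.2% were called and 48.1% had such a p. Their log2 fold changes ran from -0.10 (Ciao3) to 0.10 (Wdr24), and the estimate of Metrn itself, at -0.25, was below all 8. After upper quartile rescaling Wdr24 and Jmjd8 were called higher (limma adjusted p = 0.00673 and 0.0112). Antkmt, which lies next to Metrn on the same strand, had 974 ± 68.3 in siCasp8 and 958 ± 75.7 in Scr.

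Around Metrnl all 4 tested neighbours, which all lie at lower coordinates, were called, 3 higher and 1 lower. With those of Metrn this makes 4 of 12, or 33.3%, near the 40.2% of all genes. Zfp750, the gene of a zinc finger factor of epidermal differentiation, had 99.97, 68.9, 85.6 and 85.3 in siCasp8 and 24.5, 35.4, 32.1 and 24.4 in Scr, with no overlap (log2 fold change 1.52, SE 0.191, limma adjusted p = 4.94e-05). Fn3k, the gene of a kinase that repairs sugar-modified proteins, rose to 262 ± 43.5 in siCasp8, against 105 ± 19.8 in Scr (1.32). B3gntl1 rose by 0.29. Its estimate was 0.25 with depth as a covariate (limma adjusted p = 0.292), 0.26 without siCasp8 replicate 1 (0.0595) and 0.27 without siCasp8 replicate 4 (0.0531), and the call was lost in these fits. Tbcd, the gene of a tubulin folding factor, fell to 2702 ± 199 in siCasp8, against 3248 ± 108 in Scr (-0.27). Ptchd3, the only protein-coding gene annotated at higher coordinates than Metrnl, was listed at 0 in all 8 libraries. Zfp750 and Fn3k, which rose by over 1 on the log2 scale, lie farther from Metrnl than Tbcd and B3gntl1 do. The nearest tested neighbour was B3gntl1, at 0.29, and Metrnl itself, at -0.15, was not called.

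**Figure D4:**
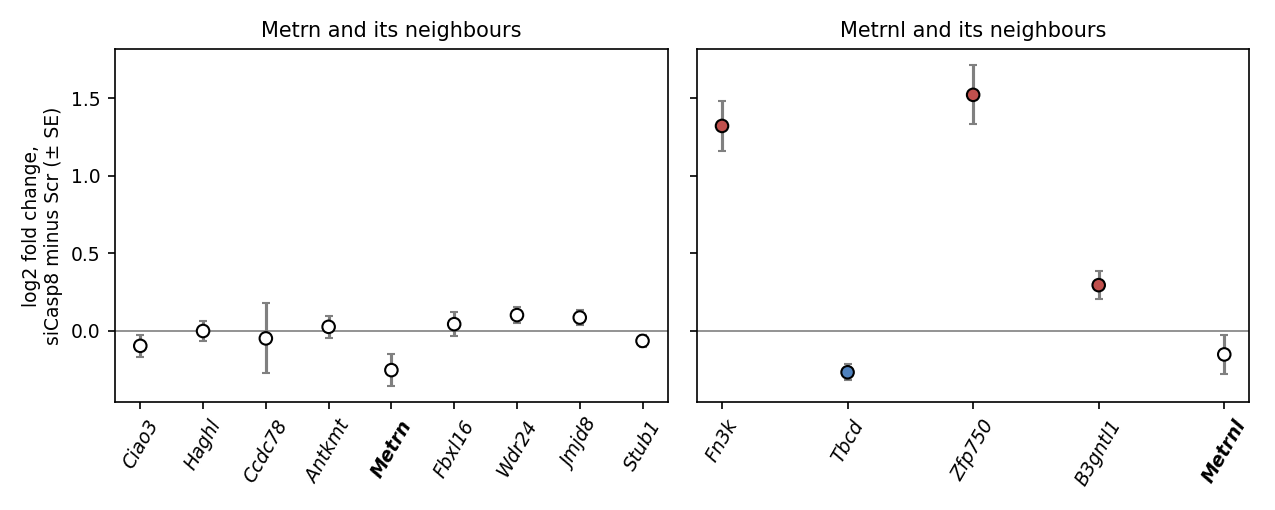
Log2 fold changes of siCasp8 minus Scr (± SE) for Metrn (left, bold) and Metrnl (right, bold) and their tested protein-coding neighbours, in order of position along the chromosome and not to scale; red points were called higher, blue lower and white not called. The neighbours of Metrn lie between -0.10 and 0.10, while those of Metrnl reach 1.32 (Fn3k) and 1.52 (Zfp750).

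The genes whose pattern over the 8 libraries was nearest to that of Metrn were Mif, Nme1, Slc22a23, Pprc1 and Ttyh3, out of 11308 candidates with a mean of at least 50. Nearness was the root mean square difference of log2 values, each gene centred on its own mean, and was 0.0434 for Mif and 0.0586 for Ttyh3, against an SD of 0.191 for Metrn itself. These 5 genes had log2 fold changes of -0.32 to -0.22, where Metrn had -0.25; being chosen for likeness fixes these values, so no test is given. Mif, a cytokine gene with 3272 ± 231 in siCasp8 and 3967 ± 418 in Scr, had a log2 fold change of -0.27. For Metrnl the nearest were Hpcal1, Rhog, Mfn2, Slc29a2 and Mrps11, at 0.0381 to 0.0430. Metrnl ranked 36 among the genes nearest to Metrn, and Metrn ranked 121 among those nearest to Metrnl, at a difference of 0.0727 in either case. The genes share libraries and depth, so nearness describes these 8 libraries only.

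**Figure D5:**
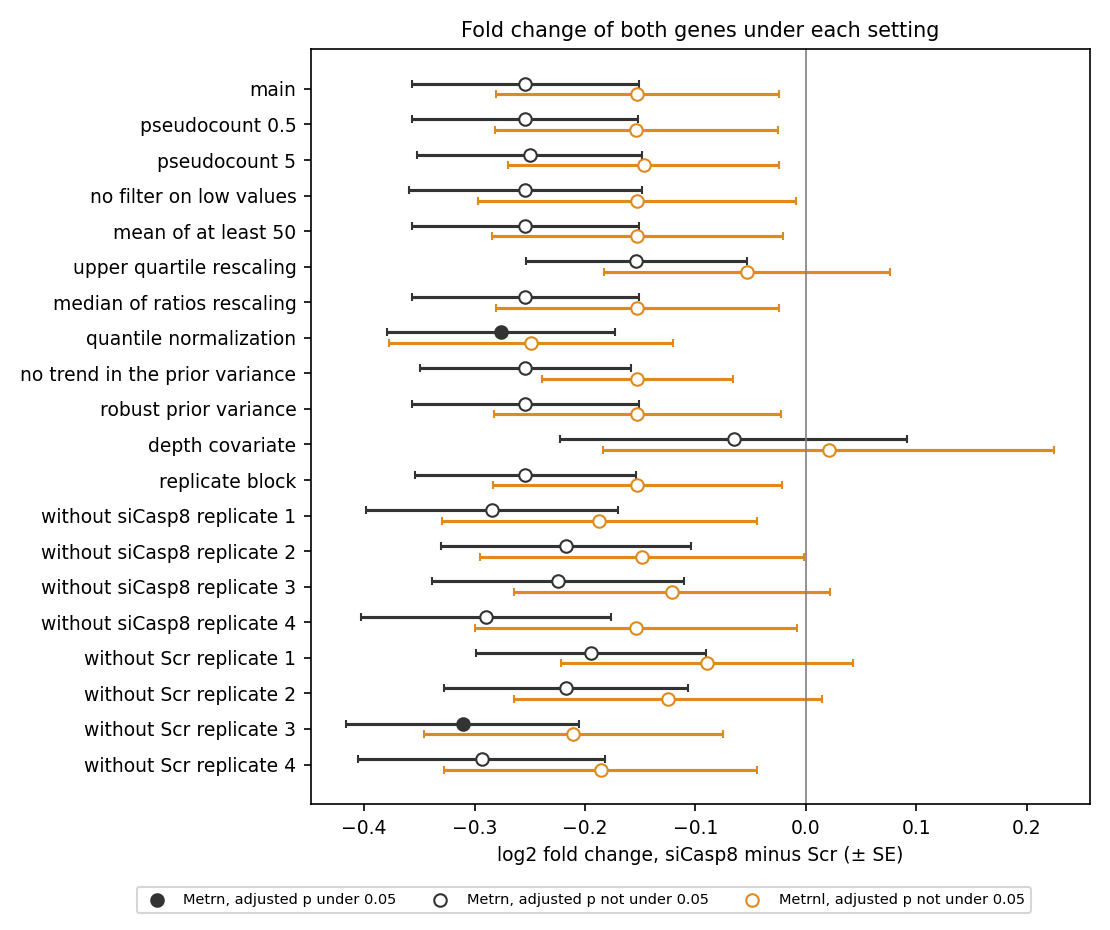
Log2 fold change of siCasp8 minus Scr (± SE) for Metrn (black) and Metrnl (orange) under the reported fit, at the top, and each alternative; filled points had a limma adjusted p under 0.05. Metrn is filled under quantile normalization (-0.28) and without Scr replicate 3 (-0.31), and the depth covariate gives the values nearest to 0, -0.07 for Metrn and 0.02 for Metrnl.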

How the data were processed

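The values that the authors deposited are a normalized signal for each gene symbol, and per the name of the table they are kallisto estimates after DESeq2 normalization. Tools listed without roles in the submitters' processing notes were kallisto 0.44.0, bcl2fastq 2.19, DESeq2 and sleuth, and builds were GRCm38 and GRCh38. Libraries were made from poly-A RNA with Illumina TruSeq chemistry, per the labels' protocols. The labels' design text calls the cultures biological replicates.

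A line with no symbol held 0.0481% to 0.0631% of each total and was left out. Totals were 44.1 to 45.6 M units per library and carry no depth, so depth was estimated as the total over the value of 1 read, the commonest low value (0.773 to 1.47). Of low values up to 20.5 reads, 63.1% to 75.2% lay within 0.1 read of a whole number, so reads could not be recovered and no count model was used. Intervals on reads cover counting error only.

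Values were tested on log2(value + 1) with limma 3.58.1 in R 4.3.3 (trend in the prior variance, two-sided, no covariate), over 14154 genes with a mean of at least 10. P-values were adjusted by Benjamini-Hochberg, with calls made under 0.05. On this scale the change of low genes is understated. The fit was tested on simulated data.

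The members and gene lists were chosen with earlier results of these data known. Named genes were Metrn, Metrnl, Casp8, called list members, all tested signalling genes, up to 4 nearest protein-coding genes on each side, and the 5 nearest patterns per member. Metrnl had only Ptchd3 at higher coordinates. Some called list members are counted but not reported here by name. Alternatives covered the pseudocount, filter, scaling, prior variance, depth, replicate block and left-out libraries.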

Additional observations from a re-analysis of the deposited data

Results flagged for a closer look

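Among 110 groups of 4 libraries looked at, over 54 named genes and the ratio of the pair, 3 had a library far from the others, where chance flags about 1 in 20 groups. Neither Metrn, Metrnl nor their ratio was among them. Socs3 stood at 1884 in siCasp8 replicate 4, apart from the other siCasp8 libraries. Jak2 stood at 8597 in Scr replicate 3, and the neighbour of Metrn, Fbxl16, stood at 559 in Scr replicate 2.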

How the results depend on the processing

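Metrn was lower in siCasp8 in all 19 alternatives, from -0.31 to -0.07 on the log2 scale, and Metrnl in 18 of 19. The filter, prior variance and replicate block settings cannot move these estimates, so their agreement in direction was fixed in advance. Metrn passed the threshold under quantile normalization (-0.28, limma adjusted p = 0.0499) and without Scr replicate 3; over all libraries left out it ranged from -0.31 to -0.19 (limma adjusted p of 0.0345 to 0.173), and Metrnl ranged from -0.21 to -0.09. The depth covariate reversed Metrnl (0.0205), called 2615 genes in place of 5689, and left 1 of the 7 neurotrophic calls. The cause was not tested. Metrn minus Metrnl ranged from -0.136 to -0.0688 over the libraries left out, and was -0.0272 after quantile normalization (exact permutation p = 0.571). Upper quartile rescaling gave -0.15 for Metrn and -0.05 for Metrnl, and called 4475 genes higher and 1665 lower, against 2739 and 2950. The counts for all genes over the libraries left out ran from 4799 to 5743, for hepatokines from 9 to 10, for neurotrophic factors from 6 to 8 and for the signalling list from 5 to 6.

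Same-numbered libraries correlated at 0.0442 to 0.169 in their deviations from group means, not over 0.1 in every pair, so the numbers were not taken to pair them, though every siCasp8 library correlated best with its own number. With the replicate block Metrn had a limma adjusted p of 0.0672, Metrnl of 0.383, and 6020 genes were called; the difference of the pair had an exact sign-flip p of 0.25, where 0.125 is the smallest that 4 pairs allow. About 74 to 120 reads of Metrnl per library limit what could be seen of it.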
